A study of Caenorhabditis elegans with 2 samples.

Results

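The regions described here are ZFH-2 ChIP-seq peaks of Caenorhabditis elegans whose summit lay inside protein-coding sequence and away from gene starts. A summit, the base of highest signal that the authors give for each peak, was kept when it fell in a coding exon of a protein-coding gene and outside all promoter windows, each set from 1000 bp before to 200 bp after the 5′ end of such a gene. Of 7085 summits on the nuclear chromosomes, 2681 met both conditions (37.8%, 95% Wilson interval 36.7 to 39.0), in a space of coding bases outside windows that makes up 20.04% of the genome. Averaged over the 7085 summits, genome positions of the same GC content within 50 bp lay in that space in 38.3%. A further 514 summits in coding exons were left out because they lay in a promoter window. The chosen summits belonged to 1756 genes, none lay in the coding exons of more than 1 gene, and their median distance from the gene's 5′ end was 2507 bp (quartiles 957 and 6374 bp).

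Chromatin immunoprecipitation used an antibody to GFP on whole young adults of strain RW12167, 64.5 hours old, grown from larvae that were starved at L1 after bleaching. These worms carry st12167, a CRISPR insertion of GFP into zfh-2 together with a loxP-flanked unc-119(+) marker, in an unc-119(tm4063) III background. The antibody label of both samples names zfh-2, the tagged gene. The data are peak lists from 2 biological replicates of this 1 group: a conservative list made from both and an own list for each replicate (4281 nuclear peaks in replicate 1 and 4696 in replicate 2). No untagged or input library was analysed here, the lists hold no read counts, and a whole animal mixes all tissues, so neither depth nor the cells behind a peak are known.

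ZFH-2 is a transcription factor with zinc fingers and homeodomains, of the family of vertebrate ZFHX3 and ZFHX4 and fly zfh2. Factors of this kind bind DNA through short sequence words, most often in promoters and enhancers. Coding exons also carry the constraint of the reading frame: their base composition follows the protein they encode, and in nematodes it is richer in G and C than that of introns and intergenic DNA.

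The windows of 7 of the strongest coding exon summits, each found in the own list of both replicates, show what such sequence looks like. Each line gives the summit base with 50 bases on either side (ce11, gene strand, 5′ to 3′). Capitals mark the codons GGN and CCN, the codon families of glycine and proline, read in the frame of the transcript. They are shown because these codon families recur through the windows.
col-107, chrIV:1549270-1549370, plus strand: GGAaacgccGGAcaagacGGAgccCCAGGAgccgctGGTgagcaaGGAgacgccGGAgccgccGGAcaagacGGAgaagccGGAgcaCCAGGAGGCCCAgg
hsp-1, chrIV:17281072-17281172, plus strand: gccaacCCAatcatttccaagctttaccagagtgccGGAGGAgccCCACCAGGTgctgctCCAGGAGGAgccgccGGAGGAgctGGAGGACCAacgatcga
idpc-7, chrV:9618536-9618636, minus strand: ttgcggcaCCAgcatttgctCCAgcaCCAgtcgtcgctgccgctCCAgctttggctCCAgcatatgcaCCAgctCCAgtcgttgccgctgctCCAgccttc
col-105, chrIV:1358247-1358347, minus strand: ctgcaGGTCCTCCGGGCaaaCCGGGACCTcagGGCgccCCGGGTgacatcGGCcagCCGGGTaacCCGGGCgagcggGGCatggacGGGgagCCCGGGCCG
rpn-1, chrIV:6907638-6907738, minus strand: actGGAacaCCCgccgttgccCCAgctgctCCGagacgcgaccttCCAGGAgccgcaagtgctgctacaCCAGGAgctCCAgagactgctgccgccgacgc
W09G12.6, chrIV:1232575-1232675, plus strand: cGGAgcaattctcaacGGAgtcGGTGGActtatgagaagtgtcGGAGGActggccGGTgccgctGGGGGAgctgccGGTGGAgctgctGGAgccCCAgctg
col-108, chrIV:1769228-1769328, plus strand: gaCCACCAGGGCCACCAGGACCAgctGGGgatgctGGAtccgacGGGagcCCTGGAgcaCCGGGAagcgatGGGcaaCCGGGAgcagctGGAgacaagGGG

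At col-105, 11 GGN and 9 CCN codons were among 33, and at col-108 the numbers were 11 and 8. The hsp-1 window, close to the end of the coding sequence, held 9 GGN and 5 CCN codons, and the idpc-7 window held 8 CCN and 0 GGN. Over the 165 windows that lay wholly inside an exon of a cuticle collagen gene, GGN made up 30.03% and CCN 22.2% of codons, against 20.5% and 15.3% over the whole coding sequences of those genes. Collagens form the worm's cuticle and are built from regular repeats of glycine followed by other residues, often proline. In the 2218 windows of all other genes GGN made up 8.37% and CCN 9.46%, against 5.99% and 6.15% over those genes and 5.36% and 4.91% over all protein-coding genes. GCN, the alanine family, made up 11.3% of codons in the same windows and 6.35% over all genes.

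On average the coding exon summits lay at local maxima of GC content, as did the summits in introns and in promoter windows. Mean GC within 50 bp was 56.2% ± 5.63 (SD, n = 2681 summits), against 54.5% ± 7.64 at the 4404 other summits. The share of summits above the median GC of the list was 51.7% in coding exons and 43.8% elsewhere (odds ratio 1.38, from 1.25 to 1.52 at 95%, with an adjusted p = 1.19e-10 by Fisher's two-sided exact test and Benjamini-Hochberg adjustment over 4 class comparisons). Inside their own gene the contrast was wider: 2416 of 2639 summits (91.5%) exceeded the mean GC content of the gene's coding sequence, 56.2% against 48.8% on average, and the median summit stood at percentile 88.1 of the gene's coding positions. GC was 64.7%, 53.6% and 51.2% at the codon positions taken in order, against 55.9%, 42.6% and 45.8% over the genes that hold a summit. The codon position that differed most was the middle one, where a base change alters the amino acid. Peaks are not independent replicates, and all tests between classes of summit measure only the spread between peaks of these lists.

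**Figure D1:**
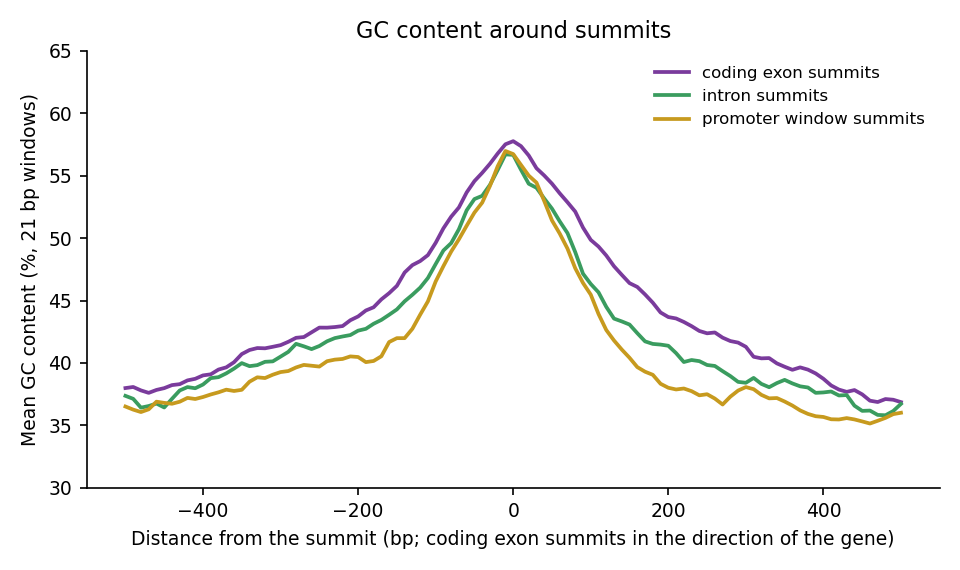
Mean GC content (%) in 21 bp windows from 500 bp before to 500 bp after the summit, for summits in coding exons, introns and promoter windows; lines are means over summits. Coding exon summits are drawn in the direction of the gene. At the summit coding exons stand at 57.8%, introns at 56.66% and promoter windows at 56.7%. At 200 bp to the right coding exons stand at 43.7%, introns at 41.4% and promoter windows at 38.0%. At 200 bp to the left they stand at 43.7%, 42.6% and 40.5%.

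The density of summits followed GC content over more than 3 orders of magnitude. Coding positions with under 40% GC, which are 44.8% of the coding sequence, held 13 summits, or 1.46 per Mb of positions. Positions with 50 to 55% held 735 (506 per Mb) and those with 60 to 65% held 516 (4203 per Mb). The positions with 65% or more are 0.144% of the coding sequence and held 150 summits, or 5214 per Mb. The deposited lists do not say whether the authors corrected for base composition, and the part of amplification or sequencing of GC-rich fragments in this relation was not tested.

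**Figure D2:**
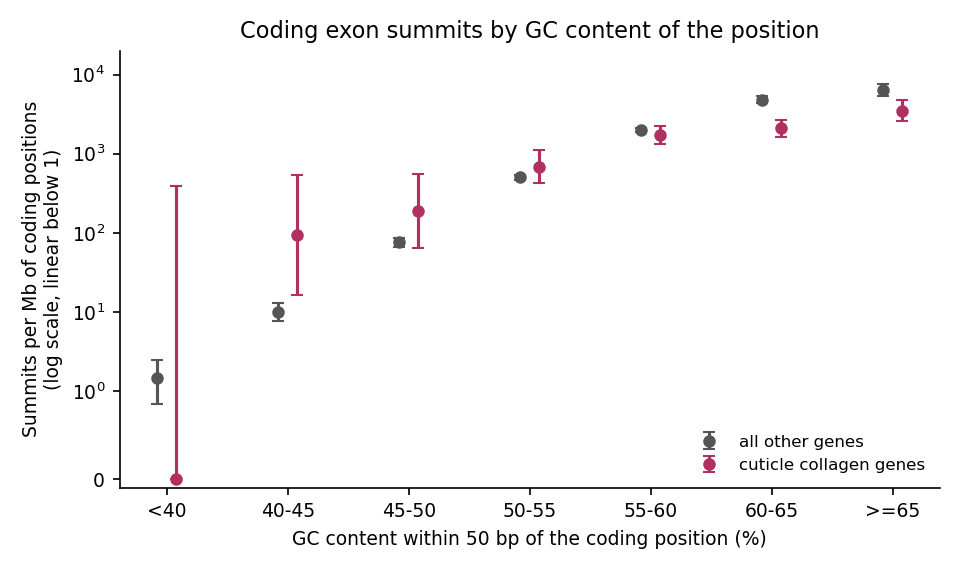
Coding exon summits per Mb of coding positions (log scale, linear below 1) by the GC content within 50 bp of the position, for cuticle collagen genes and all other genes; points are counts divided by positions and bars are 95% Wilson intervals, which cover counting only. In other genes the density goes from 1.46 per Mb under 40% GC to 6377 per Mb at 65% or more, and at 65% or more collagen genes stand at 3511 per Mb.

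Placed in the gene, the summits were sparse in short exons and near exon edges. Only 96 of 2639 (3.64%) lay in coding exons of up to 150 bp, which hold 22.6% of coding bases outside windows, while 1040 (39.4%) lay in exons of over 300 and up to 600 bp, which hold 25.4%. Summits at least 50 bp from both ends of their exon made up 90.3%, against 56.8% of coding bases. Coding positions of the same GC content lay between these values in each case, with shares of 8.94% for the short exons, 29.3% for exons of over 300 and up to 600 bp and 83.8% for the distance of 50 bp. By order in the gene, 113 summits (4.28%) were in the exon that begins the coding sequence, 1940 (73.5%) in internal, 544 (20.6%) in last and 42 (1.59%) in only coding exons, and the same shares of GC-matched positions were 4.64%, 70.5%, 22.3% and 2.49%. Along the coding sequence the summits were spread with a median at 56.97% of its length. Of 10 equal parts, the opening one held the fewest (3.94%, with 4.57% of coding bases and 4.21% of GC-matched positions) and part 8 the most (12.8%, with 10.8% and 12.3%). The median exon with a summit was 444 bp long. Of the 1433 summits in genes with more than 1 transcript, 889 were coding in every one, and 252 of all members lay inside the window of another transcript's start.

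Genes with a coding exon summit had longer coding sequences than most. Across 18419 protein-coding genes with coding bases outside windows, 1756 held a coding exon summit (9.53%), at 0.132 summits per coding kb and a median signal of 112. Of these genes 1190 held 1 summit, 378 held 2, 112 held 3 and 76 held 4 or more. Genes with a coding exon summit had a median coding length of 1490 bp, against 1023 bp over all 18419. The share of genes with a summit was 3.31% in the shortest of 5 equal groups by coding length and 21.1% in the longest.

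Cuticle collagens stood out by count. A coding exon summit was present in 107 of 173 of these genes (61.8%, Wilson interval 54.4 to 68.8), with 173 summits in all, 1.32 per coding kb and a median signal of 161. Of those 173 summits, 138 were in both own lists. The number that the GC content of their coding sequence gives, at the rates of all other genes, was 292, so the collagens held 0.592 times as many. That number adds up rates per position and sets no limit on how close summits may lie. The part of peak spacing in the difference was not tested. sqt-3, a collagen needed for body shape, held the strongest coding exon summit of the list (signal 377), and col-107 and col-105 held the next in the family (350 and 326). Collagen genes have many similar copies, and nothing at hand says how reads that match several copies were placed, so the counts of single collagens are uncertain. The cuticulins, the other structural cuticle proteins listed, held 8 summits in 6 of 35 genes, the strongest in cut-1 (211), and 7.34 were given by GC.

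Ribosomal protein and heat shock genes held more summits than their GC content gives, and translation factors did not. Ribosomal protein genes held 19 summits in 16 of 43 genes (37.2%), 2.35 times the 8.08 given by GC, with the strongest at rps-6 (175), rps-15 (163) and rpl-3 (150). That list takes genes named rpl or rps, so rla-1, described with the strongest summits, is not in it. Heat shock and DnaJ genes held 17 summits in 10 of 44 genes, 3.01 times the 5.65 given by GC. hsp-1, the constitutive Hsp70, alone held 4 of the 17, and dnj-13 and the chaperone hsp-90 followed at 142 and 141. Translation factors held 8 summits in 6 of 39 genes against 9.75 given by GC, at eif-4A3 (184), eef-1A.1 (148) and eif-2gamma (144). Aminoacyl-tRNA synthetases held 6 in 4 of 31 (4.55 given), the strongest in qars-1, which charges the glutamine tRNA (153). Many ribosomal protein genes are too short to have coding bases outside the window: 43 of 77 were counted.

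Muscle, matrix and cytoskeleton genes held summits about as often as their composition and length gave. In the giant and thick filament list 9 of 13 genes held 21 summits (23.8 given by GC), among them unc-52, the perlecan of the basement membrane under muscle (6 summits, strongest 202), unc-15, paramyosin (153), and unc-22, twitchin (121). The basement membrane and large matrix list held 28 in 6 of 18 genes (35.6 given), led by the papilin mig-6 (206) and the same unc-52, with let-805, myotactin, at 160. Spectrin, plakin and linker genes held 32 in 8 of 19, or 28 in the longest transcripts against 26.6 given. Motor protein genes held 11 in 7 of 21 (9.23 given), with the kinesin klp-7 at 188, the myosin hum-7 at 154 and the ciliary kinesin osm-3 at 143. Vitellogenin genes, which encode yolk proteins, held 7 in 3 of 6 (7.14 given), and vit-6 was the strongest at 213.

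Among neuronal and regulatory genes, counts differed between lists. Axon guidance and adhesion genes held 18 summits in 7 of 26 genes (11.8 given by GC), led by the cadherin hmr-1 (155), the semaphorin mab-20 (141) and the plexin plx-1 (135, with 6 summits). Synaptic scaffold and release genes held 8 in 6 of 23 (9.47 given), at dyn-1, dynamin (265), unc-26, synaptojanin (164), and unc-10, RIM (122). Voltage-gated and calcium channel genes held 2 in 2 of 17 (4.53 given), in the potassium channel slo-1 (125) and in unc-79 (93.7). Chromatin genes held 26 in 9 of 29 (26.2 given), at set-16 (253), the SWI/SNF subunit swsn-1 (198) and the remodeller nurf-1 (172). Homeobox genes held 17 in 10 of 93 (13.2 given), 7 of them in zfh-2 itself, with vab-7 (190) and cog-1 (163) next. Neuropeptide genes held 7 in 6 of 127 (6.27 given), and nlp-21 (303) was the strongest. In the germline and P granule list, 6 of 40 genes held 8 summits (8.18 given), and the linker histone his-24 (197) was the 1 histone gene of 5 with a summit (1.37 given).

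Chemoreceptor and F-box genes, whose coding sequences average 36.4% and 37.7% GC against 40.9% over all genes, were nearly empty. Of 1102 chemoreceptor genes only sri-40 held a coding exon summit (signal 73.5), against 12.3 given by GC, and of 312 F-box genes only fbxc-52 did (94.97, against 3.67). Nuclear hormone receptor genes held 8 in 8 of 272 (15.5 given), led by fax-1 (187), nhr-88 (173) and nhr-119 (128). C-type lectin genes held 21 in 16 of 232 (27.0 given), led by clec-78 (172), clec-124 (169) and clec-85 (147). Major sperm protein genes held 0 in 19 (1.87 given). The lists were described by counts and were not tested against each other.

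**Figure D3:**
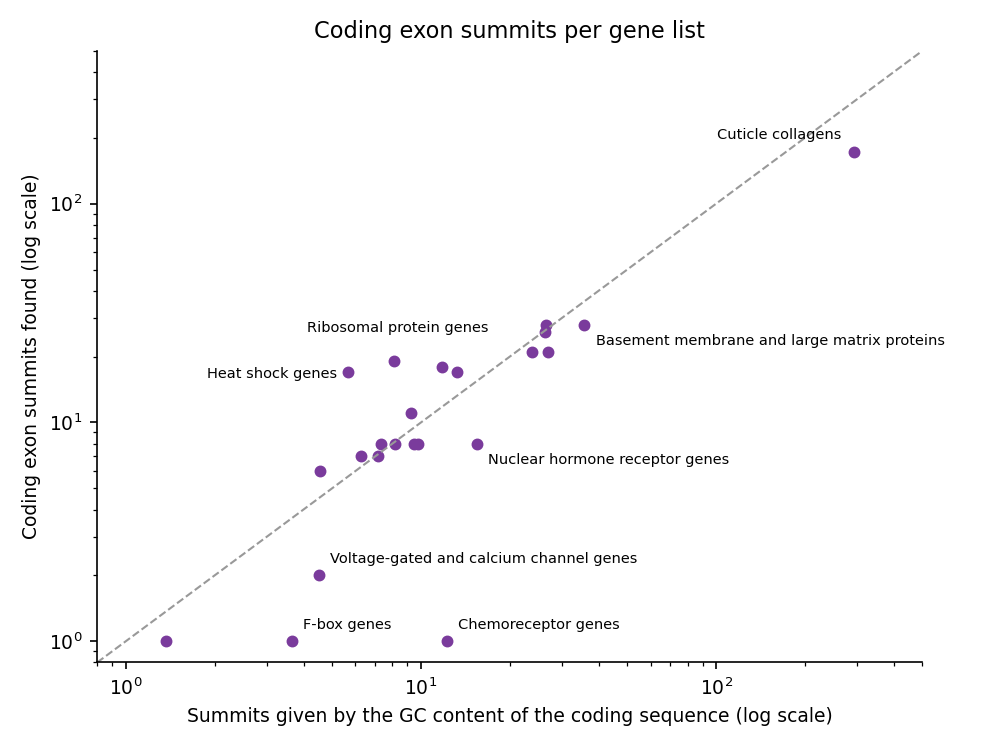
Coding exon summits found in each gene list (vertical axis, log scale) against the number given by the GC content of its coding sequence (horizontal axis, log scale); each point is a list with at least 1 summit and the dashed line marks equal numbers. Heat shock genes (17 found, 5.65 given) and ribosomal protein genes (19 and 8.08) lie above the line, cuticle collagens (173 and 292) and chemoreceptors (1 and 12.3) below it.

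The strongest coding exon summits ranked high in both replicates, more so in replicate 2. The authors' signal has no stated scale, so values rank peaks within a list. At sqt-3, in the middle of 3 coding exons, the signal was 180 in replicate 1 and 195 in replicate 2, ranks 324 and 113 of the ranked lists of 33033 and 32103 peaks. At col-107 (IV, 1549320) it was 193 and 162, ranks 263 and 220. Both cuticle collagen summits thus ranked nearer to the top of replicate 2. At rla-1 (I, 2069250), which encodes a ribosomal stalk protein, it was 166 and 185. At vab-10 (I, 11771175), the spectraplakin that links epidermis to muscle, it was 159 and 185. At hsp-1 (IV, 17281122) it was 141 and 194. The hsp-1 summit lay 2163 bp from the gene's 5′ end and at 96.9% of its coding sequence.

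The other 7 of the 12 strongest also ranked nearer to the top in replicate 2. idpc-7 (V, 9618586) had 168 in replicate 1 and 163 in replicate 2, and col-105 (IV, 1358297) had 154 and 172. The proteasome base subunit gene rpn-1 (IV, 6907688) had 175 and 150.5, and W09G12.6 (IV, 1232625) had 149 and 174. F55A12.18 (I, 5341371) had 146 and 176, and its window had the highest GC content of the 12, 78.2%. col-108 (IV, 1769278) had 168 and 155, and cyk-1 (III, 7026091), a formin of the cytokinetic ring, had 164 and 152. In 5 of the 12 the signal value was larger in replicate 1, but values of the 2 lists have no stated common scale. The 2 replicates placed the summit from 0 bp (hsp-1 and cyk-1) to 85 bp (col-108) apart.

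At the other end, 869 coding exon summits (32.4%) overlapped no peak of either own list, against 25.2% of other summits and a background of 27.9% over all summits. The strongest were in ama-1, the large subunit of RNA polymerase II (IV, 4249754, signal 139, with 80.1 and 62.1 in the replicates), in the hedgehog-related gene grd-2 (V, 20612849, 130, with 56.9 and 68.4) and in pod-2, acetyl-CoA carboxylase (II, 1149582, 128, with 68.1 and 63.0). Each had a matching summit in both longer ranked lists, at rank 2488 and 3080 for ama-1.

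Some genes carried a series of summits. eel-1, a HUWE1-type ubiquitin ligase, held the most, 12 over a coding sequence of 12555 bp on chromosome IV, from 12.9 to 95.4% of its length and with signals of 87.1 to 217. Of the 12, 5 were in both own lists. rimb-1, a RIM-binding protein of the active zone, held 9 in only 3828 bp (2.35 per coding kb), with signals of 87.6 to 273, and 6 were in both lists. set-16, a histone H3 lysine 4 methyltransferase of the MLL type, and vab-10 also held 9 each, of which 7 and 4 were in both lists. These counts go by the whole interval, so a weaker summit that shares an interval with a stronger one is counted with it. Among the 7 of set-16, the summit at 13651811 had signals of 34.7 in replicate 1 and 4.60 in replicate 2.

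pqn-41, a glutamine- and asparagine-rich protein needed for linker cell death, held 8 summits in the part of its coding sequence from 59.8 to 97.4%, and 8 of 8 were in both lists. let-2, a type IV collagen of the basement membrane on the X chromosome, held 8, with signals of 31.5 to 156. The RhoGAP gene rga-4, the spliceosomal helicase gene snrp-200 and the dystrophin gene dys-1 held 7 each, of which 4, 3 and 2 were in both lists. Among the 4 of rga-4, the summit at 1380321 shares its interval and had signals of 45.1 in replicate 1 and 2.46 in replicate 2. zfh-2, unc-33 and ketn-1 held 7 as well, and genes with equal numbers were ordered by summed signal.

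zfh-2 itself held 7 coding exon summits, on chromosome I from 805683 to 832399. The strongest (823113, in coding exon 9 of 18) had a signal of 209, with 109 in replicate 1 and 94.9 in replicate 2. The next (828612, coding exon 12) had 186, with 103 and 81.5. Both were in both own lists, as was the summit at 820301 (122), while 2 of the 7 were in neither. GC within 50 bp was 51.5 to 62.4% at the 7. This is the tagged gene and its locus carries the inserted GFP and marker.

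**Figure D4:**
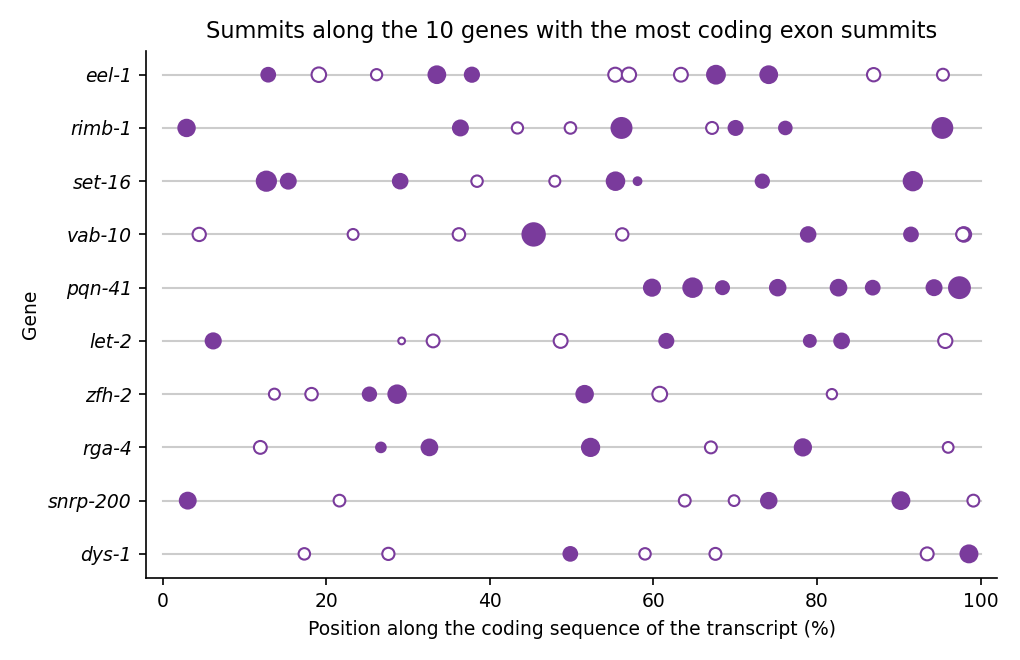
Position of each summit along the coding sequence (%) of the transcript that holds it, for the 10 genes with the most coding exon summits (ties ordered by summed signal, which leaves out unc-33 and ketn-1 with 7 each). Circle area is proportional to the authors' signal. Filled circles are summits whose peak interval overlapped the own list of each replicate, and open circles are the others. The summits of vab-10 lie on transcripts with 11082 and 15177 bp of coding sequence, so their order here is not that on the chromosome. The 8 summits of pqn-41 are all filled and start at 59.8% of the coding sequence, while the 12 of eel-1 run from 12.9 to 95.4%.

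As a class, coding exon summits were weaker than the others and less often overlapped a peak of both own lists. Their signals ran from 2.66 to 377 with a median of 112, and those of other summits from 2.04 to 783 with a median of 125. The share above the median of the list was 44.3% against 53.5% (odds ratio 0.691, 0.627 to 0.762, exact test, adjusted p = 1.26e-13). Of the 2681, 1113 (41.5%) overlapped a peak of both own lists, against 2306 of 4404 others (52.4%) and a background of 48.3% (odds ratio 0.646, 0.585 to 0.712, exact test, adjusted p = 3.24e-18). Among summits of like signal the shares lay closer: in the strongest of 5 equal groups by signal the shares were 98.1% and 98.99%, and in the next 3 groups they were 83.9% and 81.8%, 35.3% and 32.6%, and 6.34% and 6.601%. In the weakest group they were 13.9% and 24.0%. Over all groups, a peak of replicate 1's own list overlapped 49.8% of coding exon summits and 64.5% of others. For replicate 2's own list the shares were 59.3% and 62.7%. In both longer ranked lists, 2562 of 2681 coding exon summits and 4175 of 4404 others had a matching summit within 150 bp. Taken over replicate 1's own list alone, its coding exon summits overlapped replicate 2's list more often than its other summits (odds ratio 1.20, exact test, adjusted p = 0.0210), while over replicate 2's own list its coding exon summits overlapped replicate 1's list less often (odds ratio 0.545, exact test, adjusted p = 8.57e-20).

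The fall of the coding share among the strongest peaks had no counterpart in the share that GC content gives. From the strongest to the weakest of the 5 groups the coding exon share was 22.8, 38.96, 41.99, 42.3 and 43.2%, while genome positions of the same GC content as those summits were coding in 37.0, 38.2, 39.2, 39.4 and 37.8%. The strongest group thus held 0.615 times the share given by its GC content, and the other 4 groups held 1.02, 1.07, 1.07 and 1.14 times theirs. Coding exon summits in the strongest group were also the most GC-rich, 62.4% against 58.2% at other summits of that group. Cuticle collagen genes held 67 of the 323 (20.7%), against 173 of all 2681 (6.45%).

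The replicates differed in where their strongest peaks lay. Among the strongest 500 peaks of its own list, replicate 1 had 22 coding exon summits (4.4%) and replicate 2 had 90 (18%). Among the strongest 1000 they had 113 (11.3%) and 254 (25.4%), and among the strongest 4000 they had 1221 (30.5%) and 1453 (36.3%; Fisher's exact test, odds ratio 1.30, 1.18 to 1.43, p = 4.32e-08). This compares the lists of 2 libraries, not conditions. The mean GC content of the strongest 500 peaks was 57.7% in replicate 1 and 61.4% in replicate 2, and the coding share that this GC content gives was 38.0% and 35.7%. Of the coding exon summits among them, 9 of 22 in replicate 1 and 23 of 90 in replicate 2 lay in cuticle collagen genes.

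**Figure D5:**
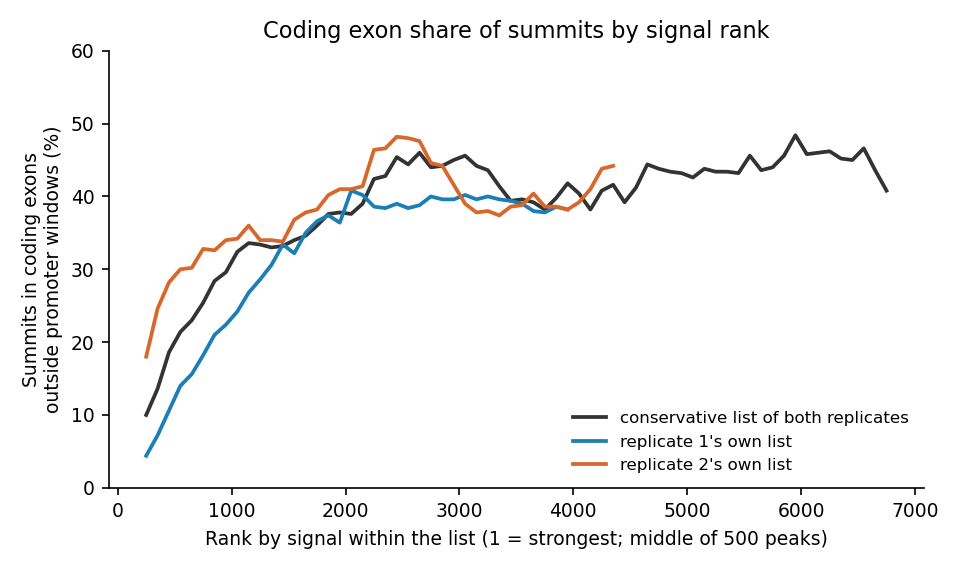
Share of summits in coding exons outside promoter windows (%) against rank by signal, in sliding groups of 500 peaks of the conservative list and of each replicate's own list; lines are shares. The strongest 500 peaks hold 4.4% in replicate 1, 18% in replicate 2 and 10% in the conservative list, and the lines end at 38.2%, 44.2% and 40.8%.

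The same asymmetry was present peak by peak. Of the summits of the conservative list found only in replicate 2's own list, 477 of 933 (51.1%) were in coding exons, against 222 of 756 (29.4%) of those found only in replicate 1's (odds ratio 2.51, 2.04 to 3.098, Fisher's exact p = 1.11e-19). In 4 groups of rising GC content the odds ratios were 3.06, 2.05, 2.65 and 1.55, the last with an exact p of 0.129. Of 2562 coding exon summits with a matching summit within 150 bp in both ranked lists, 1522 (59.4%) ranked nearer to the top in replicate 2, against 43.4% of 4175 other summits (odds ratio 1.91, 1.73 to 2.11, exact p = 2.16e-37). Replicate signals at these 2562 summits were related by a rank correlation (Spearman's rho) of 0.715 and by a Pearson r, taken on log10 values, of 0.715, and at the 4175 others by 0.767 and 0.805. These correlations are over peaks that share 1 pair of libraries. Matching summits were a median of 27 bp apart in coding exons and 21 bp elsewhere.

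Words bound by known factor families were counted within 50 bp of summits, on either strand. GAGAGAGA, the GAGA repeat, was the word that set coding exons apart most: it was present at 10 of 2681 coding exon summits (0.373%) and at 275 of 4404 others (6.24%; odds ratio 0.0562, 0.0266 to 0.105, exact test, adjusted p = 4.28e-44, Benjamini-Hochberg over 8 words). The share in all coding windows of that length was 0.290%. The E-box words were more frequent in coding exons: CAGCTG at 8.50% against 4.79% (odds ratio 1.85, exact test, adjusted p = 2.50e-09), CACGTG at 5.45% against 2.82% (1.99, adjusted p = 1.10e-07) and CACCTG at 6.68% against 3.93% (1.75, adjusted p = 9.06e-07). TGACGTCA, the cyclic AMP response element, was at 1.31% against 0.431% (3.05, exact test, adjusted p = 9.81e-05). GCCGCC was at 16.9% against 14.7% (1.18, exact test, adjusted p = 0.0170). TAATTA, a core word of homeodomains, was at 9 coding exon summits (0.336%) against 0.908% (0.368, exact test, adjusted p = 0.00607). Neither of the last 2 calls held throughout: GCCGCC lost it against intron summits only (1.19, exact test, adjusted p = 0.0697) and promoter summits only (1.11, adjusted p = 0.273), and TAATTA in the stronger 50% of peaks (0.220, adjusted p = 0.205) and against promoter summits only (0.469, adjusted p = 0.151). AATATT was at 1.34% against 1.79% (0.745, 0.486 to 1.12, exact test, adjusted p = 0.174).

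For most words the share at coding exon summits was near that in coding sequence of the same GC content. Every word except CAGCTG stood above its matched share. The homeodomain word was at 0.336% against 0.174%, which rests on 9 summits. These differences from matched sequence were not tested. Over all coding windows of this length the shares were 3.50% for CAGCTG, 2.49% for CACGTG, 3.21% for CACCTG, 0.575% for TGACGTCA, 2.68% for GCCGCC, 2.19% for TAATTA and 7.70% for AATATT. Over coding windows matched to the summits on GC they were 8.64%, 5.33%, 6.38%, 1.05%, 15.7%, 0.174% and 1.04%, and 0.277% for GAGAGAGA. One summit is shown here for each of 4 of the words past the threshold (50 bases on either side, ce11, gene strand, 5′ to 3′, words in capitals), to show the words within coding sequence. The cyclic AMP response element and the homeodomain word read the same on both strands, and CAGGTG is the other strand of CACCTG.
hsp-1 with CACCTG, chrIV:17281072-17281172, plus strand: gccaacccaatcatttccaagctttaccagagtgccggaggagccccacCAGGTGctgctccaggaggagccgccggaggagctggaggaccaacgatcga
pqn-42 with TGACGTCA, chrII:2457110-2457210, minus strand: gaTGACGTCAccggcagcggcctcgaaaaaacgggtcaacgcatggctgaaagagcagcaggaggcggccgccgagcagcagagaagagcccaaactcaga
F56A11.6 with GAGAGAGA, chrIV:580642-580742, minus strand: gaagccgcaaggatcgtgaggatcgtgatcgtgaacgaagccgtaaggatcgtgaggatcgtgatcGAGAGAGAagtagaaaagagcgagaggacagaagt
Y50D4C.5 with TAATTA, chrV:1003418-1003518, minus strand: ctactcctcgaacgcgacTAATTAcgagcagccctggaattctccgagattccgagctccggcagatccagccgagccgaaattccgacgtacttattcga

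The signals of these summits were 337 at hsp-1, 214 at pqn-42, 170 at F56A11.6 and 108 at Y50D4C.5. A word in a window is a match of letters only, and the share of windows with it says nothing on whether ZFH-2 or another factor binds there.

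Coding exon peaks were also more often split into several summits. An interval listed more than once held 295 of the 2681 (11.0%) and 409 of the 4404 others (9.29%; odds ratio 1.21, 1.03 to 1.42, exact test, adjusted p = 0.0196). Of the 295, 87 (29.5%) lay in cuticle collagen genes. Without the collagen genes the odds ratio was 0.898 (exact test, adjusted p = 0.234), so the direction turned, and over replicate 1's own list it was 0.568 (adjusted p = 0.000185).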

How the data were processed

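The data are ChIP-seq peak lists of 2 biological replicates, with coordinates in ce11 per the labels; no aligner, peak caller or control is named there. Each deposited peak carries the authors' signal, whose scale is not stated, and a score of at most 1000 that follows the irreproducible discovery rate (IDR). Own lists and ranked lists were made from each replicate's alignments and the conservative list from both, per the deposited text records. Coordinates were compared with WBcel235 chromosome lengths, and genes came from Ensembl release 115. The 2 mitochondrial peaks were left out.

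A summit in a promoter window was never counted as coding, and coding exons took precedence over untranslated regions and introns. A summit counted as found in a list when its peak overlapped one there by 1 bp or more, and replicate signals came from the nearest summit within 150 bp in the ranked lists, which 42 (replicate 1) and 40 (replicate 2) members shared with another member. Place, GC and codons used the longest coding transcript (2639 members), and codon shares used windows wholly inside 1 exon. The share or number given by GC averages, over positions with the same GC count within 50 bp, the share that is coding or the rate of summits in genes outside the list. Tests were two-sided Fisher's exact tests with a threshold of 0.05, tested on simulated data. Depth is unknown and Wilson intervals cover counting only. The software was Python (3.11.15), SciPy (1.17.1), NumPy (2.4.6), pandas (2.3.3) and matplotlib (3.10.9).

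The members, gene lists and words were chosen with earlier results of these data known. The GC-matched values, codon shares, chromosome comparison, collagen breakdown and the comparisons of summits in 1 own list only or by replicate order were chosen after seeing the data, and the translation factor list was corrected then because its pattern took in a formin gene. Genes named are the 12 strongest members in both own lists, the 10 genes with the most members (ties by summed signal), up to 3 of each of 24 lists, the 3 strongest in neither list, the 3 nearest to a window edge on each side and zfh-2; pqn-42, F56A11.6 and Y50D4C.5 are named for their sequences. Sequences are of the 8 strongest members in both own lists and of the strongest member with each word past the threshold, in both cases outside chromosome I; windows chosen so but not shown, those for 3 of the 7 words among them, are not reported here. Alternatives tried were other promoter windows, transcript starts, overlaps and sequence windows, either own list by itself, the second pooled list, the stronger 50% of the peaks, 1 summit per merged region, other comparison classes and other numbers of ranked peaks, and, chosen after seeing the data, leaving out the cuticle collagens.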

Additional observations from a re-analysis of the deposited data

How the results depend on the processing

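No paired analysis was possible because there is 1 group only, with no second group to pair replicates with. Leaving out a replicate means using the other replicate's own list, where being found in both lists means overlapping the list left out. On that basis the coding exon share was 30.5 to 37.0%, the odds ratio for being found in both lists 0.545 to 1.20, that for a shared interval 0.568 to 1.02, the share in internal exons 69.8 to 70.9% and the share of genes with a coding exon summit 5.46 to 6.597%. Of 197 values under all alternatives, 160 were counted as unchanged. They kept their direction and side of the threshold, or stayed within the interval of the value reported. The number of words past the threshold, 5 to 8 against 7, has no interval and was counted as unchanged throughout. The coding exon share was 33.5% in the stronger 50% of peaks, 43.0% with the window from 500 bp before to 100 bp after the 5′ end, 28.6% with that from 2000 bp before to 500 bp after, 34.3% with all transcript starts and 36.3% without cuticle collagens. The share in internal exons was 68.7, 68.8 and 79.02% under the former 3 and 76.6% without collagens, and the share of genes was 5.03% in the stronger 50%, 10.3% with the narrow window, 8.95% with all transcript starts and 9.04% without collagens. The odds ratio for a shared interval was 1.01 (exact test, adjusted p = 0.895) with the wide window, 1.13 (adjusted p = 0.263) against introns only, 1.13 (adjusted p = 0.245) against promoter windows only and 0.898 without collagens; it cannot be computed with 1 summit per merged region. Among the words, AATATT turned to an odds ratio of 1.23 within 25 bp (exact test, adjusted p = 0.566) and passed the threshold in replicate 2's own list (adjusted p = 0.0412) and within 100 bp (adjusted p = 9.11e-05). GCCGCC lost its call in 5 alternatives (exact tests, adjusted p = 0.0629 to 0.273): all transcript starts, merged regions, 25 bp, and introns or promoter windows only. TAATTA lost its call in 4 (exact tests, adjusted p = 0.151 to 0.566): the stronger 50%, either own list, and promoter windows only. The other 5 words kept their direction and call in all alternatives run. The ranked comparison of the replicates kept its direction and call in all 6 alternatives run, with odds ratios of 1.28 to 1.58 (3800 peaks per list after merging). The cause of these shifts was not tested. In the stronger 50% both the number and the strength of the peaks differ, and these were not separated. The lists limit the precision: they hold no read counts and no control.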

Other observations

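Coding exon summits were less frequent on the X chromosome. Of 1203 X summits 298 (24.8%) were in coding exons, against 2383 of 5882 (40.5%) on the autosomes (odds ratio 0.484, from 0.419 to 0.558 at 95%, by a two-sided Fisher's exact test chosen after seeing the data, p = 8.87e-26). The GC content of the X summits gives a share of 31.8%, of which the observed share is 0.780 times, and on the 5 autosomes the observed share was 0.942 times (I) to 1.11 times (V) the share given by GC. Per Mb of coding bases outside windows the X chromosome held 95.6 coding exon summits, V held 98.8, IV held 124, I held 155, II held 167 and III held 175. The median signal of these summits was 113 on X and between 110 and 114 on each autosome.

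Genes with a coding exon summit also had a summit in their promoter window more often: 407 of 1756 (23.2%), against 1177 of 16663 other genes (7.06%). In the 5 groups by coding length the shares were 18.02 to 25.96% and 5.30 to 10.03%. This was not tested, since neighbouring genes can share a window.

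Some summits in coding exons lay close to an edge of a promoter window, on either side. Within 50 bp of an edge lay 59 of the 2681 coding exon summits outside windows (median signal 114). Of the 514 coding summits inside windows, 85 lay that close (123). The share of coding bases that close to an edge is not given here, so the counts have no background. The nearest outside were in T21H3.1 (1 bp, signal 130), tnt-4, a troponin T (3 bp, 127), and ldh-1, lactate dehydrogenase (4 bp, 122), and the nearest inside in ndua-7 (2 bp, 172), F32D1.7 (2 bp, 155) and gopc-1 (3 bp, 85.8).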
